A study of Mus musculus with 6 samples.

Results

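The matrix-binding integrins described here are 10 genes, the alpha chains Itga1, Itga5, Itga6, Itga7, Itga9, Itga11 and Itgav and the beta chains Itgb1, Itgb3 and Itgb5. They were chosen by gene symbol from the authors' normalized table of 16247 genes and joined by Ensembl identifier to the raw count table of 51912 genes, and 10 of 10 were found. All 10 passed the filter on low counts, so that none of them is missing from the 14696 genes tested. RNA from the soleus, a postural calf muscle made largely of slow-twitch fibers, was sequenced from 3 heterozygous Mustn1 KO-first mice (HET) and 3 wild-type littermates (WT), with 1 library per mouse. All 6 mice were of the C57BL6/N strain, 8 weeks old and without a listed treatment. HET mice carried in every cell 1 copy of an allele in which a lacZ gene trap with a neomycin resistance gene captures the transcript of Mustn1, a gene for a small protein of muscle and skeletal tissues, and they kept the other copy. The comparison asks which soleus transcripts differ when Mustn1 is reduced.

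The libraries held 471, 452 and 574 reads on Mustn1 in HET mice 1 to 3, against 691, 817 and 1504 in WT mice 1 to 3. It fell by 0.96 on the log2 scale (adjusted p = 0.0452, edgeR quasi-likelihood test with Benjamini-Hochberg adjustment), and the genotypes did not overlap in normalized counts. That call held under 12 of 18 other settings, and the adjusted p was between 0.0659 and 0.280 without HET mouse 1, HET mouse 3, WT mouse 1 or WT mouse 2, 0.0673 with limma-voom and 0.0606 without robust dispersion. The labels give all 6 mice as male. Each of the 6 libraries, in both genotypes, held between 3858 and 9154 reads on Xist, the RNA of the inactive X chromosome, while Ddx3y, Kdm5d, Uty and Eif2s3y, 4 genes of the Y chromosome, together had from 0 to 12 reads per library, so the libraries go against that label. The libraries held between 26790075 and 50368796 reads on genes. As a check of the tissue, 10 muscle fiber markers summed to between 82060 and 96630 CPM (counts scaled to library size by edgeR) in HET and between 88090 and 90880 CPM in WT mice. Over all genes tested, 21 were higher in HET mice at an adjusted p below 0.05, or 0.143% of them, and 1 was lower, or 0.0068%.

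Integrins are cell surface receptors made of 1 alpha and 1 beta chain that tie the extracellular matrix to the actin cytoskeleton. The alpha chain largely sets which matrix protein is bound, and the short tail of the beta chain inside the cell recruits talin and kindlin, which switch the receptor on. In skeletal muscle the pair of Itga7 and Itgb1 binds laminin of the basement membrane and gathers at the myotendinous junction, where fibers pass force to the tendon. Fibroblasts, tenocytes, vessel cells and macrophages of the muscle carry other pairs.

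The tail motif of each chain type, alpha or beta, is shown as it stands in the transcripts. The counts that follow are per gene. In the alpha chains the capitals mark the 9 bases that encode the first 3 residues of the GFFKR-type motif, next to the membrane.
Itga7: aagctgGGATTCTTCaagcgggcg
Itga6: aagtgtGGCTTCTTCaagagaaat
Itga1: aagattGGATTCTTCaaaaggcca
Itga11: aagctcGGTTTTTTTaaaagtgcc
Itga5: aagctcGGCTTCTTCaaacgttcc
Itgav: aggatgGGCTTTTTCaaacgtgtc
Itga9: aagatgGGCTTCTTCcgcagaagg

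In the beta chains the capitals mark the 12 bases of the NPxY-type motif nearest the membrane, to which talin binds.
Itgb1: ggtgaaAATCCTATTTACaagagtgcc
Itgb3: gcaaacAACCCGCTGTATaaagaggcc
Itgb5: gcctcaAACCCCCTGTACagaaagccc

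All 10 stretches were read from the GENCODE M21 transcripts of the mouse build GRCm38, 5′ to 3′ on the coding strand. Each of the 7 alpha stretches runs across an exon junction, in Itga11 between exons 29 and 30 at chr9:62782047-62782648. Each of the 3 beta stretches lies within 1 exon, in Itgb3 in exon 15 at chr11:104667080-104667106. Among the alpha chains the marked bases of Itga11 differ from those of Itga1 at 3 of the 9, the most of the 6 that were compared with Itga1. The marked bases of Itgb3 differ from those of Itgb1 at 5 of 12, and those of Itgb5 at 4. Itga6, Itga7 and Itgb1 are known to have alternatively spliced tails, and the counts per gene used here do not separate those forms.

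Itgb1, the beta chain shared by most matrix-binding pairs, stood highest of the 10 by level per length, and Itgb3 stood lowest. Levels per length are given as RPKM, reads per kilobase of exon scaled to library size, so that genes can be compared. In WT mice the mean RPKM was 84.5 for Itgb1, 21.5 for Itga7, 20.6 for Itgb5, 9.16 for Itga5, 6.51 for Itga6, 5.59 for Itgav, 3.98 for Itga1, 2.68 for Itga9, 0.669 for Itga11 and 0.393 for Itgb3. The order of the mean RPKM was the same in HET mice. Neighbours in that order whose RPKM ranges overlapped in both genotypes were Itga7 with Itgb5 and Itga6 with Itgav. The ranges of Itga1 and Itga9 overlapped in HET mice alone and those of Itga11 and Itgb3 in WT mice alone. Every other step in the order separated the 3 mice of a genotype from the next gene.

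**Figure D1:**
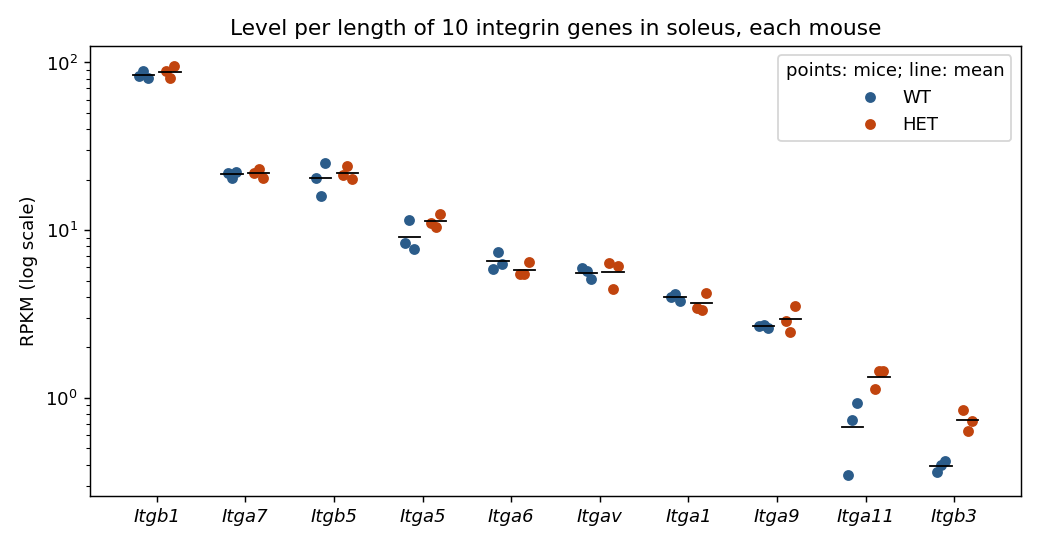
Level per length of the 10 integrin genes, in RPKM on a log axis, with 1 point per mouse, WT in blue and HET in orange, and a line at the mean of 3 mice. The genotypes overlap for 8 genes. All HET mice lie above all WT mice for Itga11, with HET levels of 1.12 to 1.44 RPKM, and for Itgb3, with HET levels of 0.632 to 0.851 RPKM.

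At an adjusted p below 0.05, 0 of the 10 integrin genes were called by edgeR. Itga11 and Itgb3, the lowest in level, had the highest log2 fold changes, and they were the 2 members whose genotypes did not overlap. Groups that do not overlap with HET higher were found for 7.55% of all genes tested, and with HET lower for 6.02%. At an unadjusted p below 0.05 in edgeR's quasi-likelihood test, 2 of 10 members were higher in HET mice, beside 5.76% of all genes, and 0 were lower, beside 2.0% of all genes (7.76% in either direction). The log2 fold change was above 0 for 8 members and below 0 for 2, where 45.6% of all genes lay above 0. Its median was 0.07 over the members and −0.02 over all genes.

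**Figure D2:**
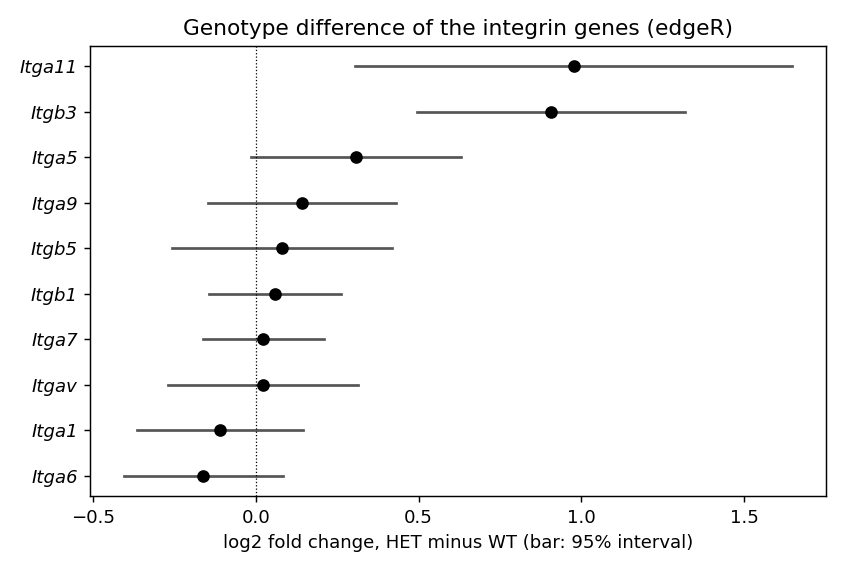
Log2 fold change of HET against WT mice for each integrin gene, from edgeR, with the 95% interval as a bar and a dotted line at 0. The intervals of Itga11 and Itgb3 lie above 0, and those of the other 8 genes include 0 and stay between −0.41 and 0.63.

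Itga11 (chr9:62677826-62783982, plus strand) encodes the alpha chain of a fibroblast receptor for fibrillar collagen. Its RPKM was 1.12, 1.44 and 1.44 in HET mice 1 to 3 and 0.345, 0.733 and 0.928 in WT mice 1 to 3. Every HET mouse stood above every WT mouse, and WT mouse 1 stood well below the other two. The underlying reads were 216, 198 and 325 in HET and 53, 106 and 235 in WT mice. In CPM, Itga11 had a mean of 6.85 ± 0.937 in HET and of 3.43 ± 1.52 in WT mice (SD over 3 mice each). That is a log2 fold change of 0.98 (SE 0.30, 95% interval 0.31 to 1.65), or 1.97-fold with an interval of 1.24 to 3.13. Its adjusted p was 0.340 by the edgeR quasi-likelihood test (Benjamini-Hochberg), from an unadjusted p of 0.00916. A two-sided exact permutation test of the 3 against 3 mice gave p = 0.1, the smallest it can give. Without WT mouse 1 the log2 fold change was 0.67, and without WT mouse 3 it was 1.31.

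Itgb3 (chr11:104608000-104670476, plus strand) encodes the beta chain that pairs with Itgav to bind vitronectin, fibronectin and osteopontin, and that platelets pair with Itga2b. Its RPKM was 0.851, 0.632 and 0.730 in HET mice 1 to 3 and 0.363, 0.397 and 0.419 in WT mice 1 to 3. All HET mice lay above all WT mice, and the WT mice lay close together. Between 64 and 189 reads per library stood behind these values. Mean CPM was 4.35 ± 0.649 in HET and 2.32 ± 0.167 in WT mice (SD over 3 mice each). The log2 fold change of 0.91 (SE 0.19, 95% interval 0.50 to 1.32), or 1.88-fold with an interval of 1.41 to 2.50, had an adjusted p of 0.108 by the edgeR quasi-likelihood test (Benjamini-Hochberg) and an unadjusted p of 0.000572. The exact permutation test again gave its smallest p, 0.1. Leaving out any 1 mouse gave log2 fold changes from 0.79 to 1.02.

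For these 2 genes the call depended on the test and the filter. With DESeq2's Wald test the adjusted p was 0.0402 for Itga11 and 0.0162 for Itgb3, where 1.12% of all genes with an adjusted p were called higher. With edgeR and no filter on low counts it was 7.74e-05 for Itga11 and 0.00474 for Itgb3, where 1.33% of all genes were called higher. Under the other 16 of 18 settings neither gene passed, and over all 18 the adjusted p ranged from 7.74e-05 to 0.89 for Itga11 and from 0.00474 to 0.369 for Itgb3.

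The laminin-binding alpha chains overlapped between genotypes. Itga7 (chr10:128933818-128958282, plus strand), the muscle laminin receptor, was at 21.9, 23.2 and 20.5 RPKM in HET mice 1 to 3 and at 21.8, 20.5 and 22.3 RPKM in WT mice 1 to 3. The spread within each genotype was larger than the difference between them, and the log2 fold change was 0.02 (SE 0.08, 95% interval −0.16 to 0.21). Its adjusted p was 0.978 by the edgeR quasi-likelihood test (Benjamini-Hochberg). Itga6 (chr2:71745616-71858416, plus strand), a laminin receptor of vessels and of many precursor cells, was at 5.49, 5.49 and 6.47 RPKM in HET and at 5.86, 7.36 and 6.32 RPKM in WT mice. HET mouse 3 reached into the WT range. Its log2 fold change of −0.16 (SE 0.11, 95% interval −0.41 to 0.08) was the lowest of the members, with an adjusted p of 0.842 by the edgeR quasi-likelihood test (Benjamini-Hochberg).

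Itga1 (chr13:114958079-115101964, minus strand), which binds collagen, chiefly that of basement membranes, was the other member below 0. Its RPKM was 3.45, 3.34 and 4.24 in HET mice 1 to 3 and 3.97, 4.18 and 3.79 in WT mice 1 to 3, with HET mouse 3 the highest of all 6. The log2 fold change was −0.11 (SE 0.12, 95% interval −0.37 to 0.14, adjusted p = 0.904 by the edgeR quasi-likelihood test (Benjamini-Hochberg)). Pelo lies within the span of Itga1 on the same strand, and reads that overlap exons of both were left out by the authors' counting. Itga1 and Itga11 are both collagen-binding chains, and their log2 fold changes had intervals that did not overlap.

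The fibronectin receptor chain Itga5 (chr15:103344286-103366763, minus strand) came next to Itga11 and Itgb3 in fold change. It was at 11.1, 10.4 and 12.5 RPKM in HET mice 1 to 3 and at 8.34, 11.4 and 7.70 RPKM in WT mice 1 to 3. WT mouse 2 lay among the HET mice, while the other two WT mice were below all of them. The log2 fold change was 0.31 (SE 0.14, 95% interval −0.01 to 0.63), with an adjusted p of 0.676 by the edgeR quasi-likelihood test (Benjamini-Hochberg). Itgav (chr2:83724397-83806916, plus strand), the alpha partner of both Itgb3 and Itgb5, was at 6.39, 4.47 and 6.12 RPKM in HET and at 5.97, 5.68 and 5.10 RPKM in WT mice. The HET mice spanned the whole WT range, and the log2 fold change was 0.02 with a 95% interval of −0.27 to 0.32. Itga9 (chr9:118606690-118901003, plus strand), whose product binds tenascin-C and osteopontin, was at 2.86, 2.47 and 3.53 RPKM in HET and between 2.63 and 2.73 RPKM in WT mice. The 3 WT mice lay within the HET range, and the 95% interval of its log2 fold change of 0.14 ran from −0.15 to 0.43.

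Of the beta chains, Itgb1 (chr8:128685654-128733200, plus strand) was at 88.6, 80.6 and 94.8 RPKM in HET mice 1 to 3 and at 83.0, 89.5 and 80.9 RPKM in WT mice 1 to 3. The genotypes overlapped, and the interval bounds the difference most closely after Itga7, with a log2 fold change of 0.06 (SE 0.09, 95% interval −0.14 to 0.26, adjusted p = 0.943 by the edgeR quasi-likelihood test (Benjamini-Hochberg)). Itgb5 (chr16:33829665-33949153, plus strand), the other partner of Itgav for vitronectin, was at 21.2, 24.1 and 20.1 RPKM in HET and at 20.6, 15.9 and 25.3 RPKM in WT mice. WT mice 2 and 3 were the lowest and the highest of all 6. Its log2 fold change was 0.08 with a 95% interval of −0.26 to 0.42. By an exact permutation test the 8 members other than Itga11 and Itgb3 had p between 0.3 and 0.9.

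Since an alpha chain reaches the surface only with a beta chain, the mix of the 10 members within each mouse was also compared. The sums hold only the 7 alpha and 3 beta members. Itgb6, a beta chain outside the members, had a mean of 10.47 RPKM in HET and 10.96 RPKM in WT mice. It is not in these sums, so the shares and the alpha to beta ratio apply to the members alone. In both genotypes Itga7 held the most of the summed alpha RPKM, 41.7% ± 4.10 (SD, n = 3) in HET and 43.1% ± 3.60 in WT mice, and Itgb1 held 79.5% ± 2.78 of the summed beta RPKM in HET and 80.1% ± 4.34 in WT mice. The share of Itga11 was 2.15%, 2.83% and 2.64% in HET mice 1 to 3 and 0.705%, 1.39% and 1.90% in WT mice 1 to 3. Itgb3 held 0.769%, 0.599% and 0.631% of the beta RPKM in HET and 0.349%, 0.375% and 0.393% in WT mice. Both shares were higher in every HET mouse than in every WT mouse. The shares of Itga6 and Itga1 were lower in every HET mouse than in every WT mouse, but only narrowly. For Itga6, HET mouse 3 had 11.81% and WT mouse 1 had 11.95%. For Itga1, HET mouse 3 had 7.745% and WT mouse 3 had 7.778%. The difference of means, HET minus WT, was −1.93 percentage points for Itga6 and −0.97 for Itga1. Shares within a mouse sum to 100, so a higher share of one chain lowers the rest, and the RPKM of Itga6 and of Itga1 did overlap. Each of these 4 shares had p = 0.1 in a two-sided exact permutation test, the smallest that 3 against 3 mice allow, and an adjusted p of 0.25 over the 10 shares. The other 6 shares overlapped. Summed alpha RPKM over summed beta RPKM was 0.476 ± 0.00469 (SD, n = 3) in HET and 0.475 ± 0.0199 in WT mice, with an exact permutation p of 0.8. The RPKM of all 10 genes summed to 163.2 ± 7.13 in HET and 155.5 ± 2.78 in WT mice, with an exact permutation p of 0.2.

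**Figure D3:**
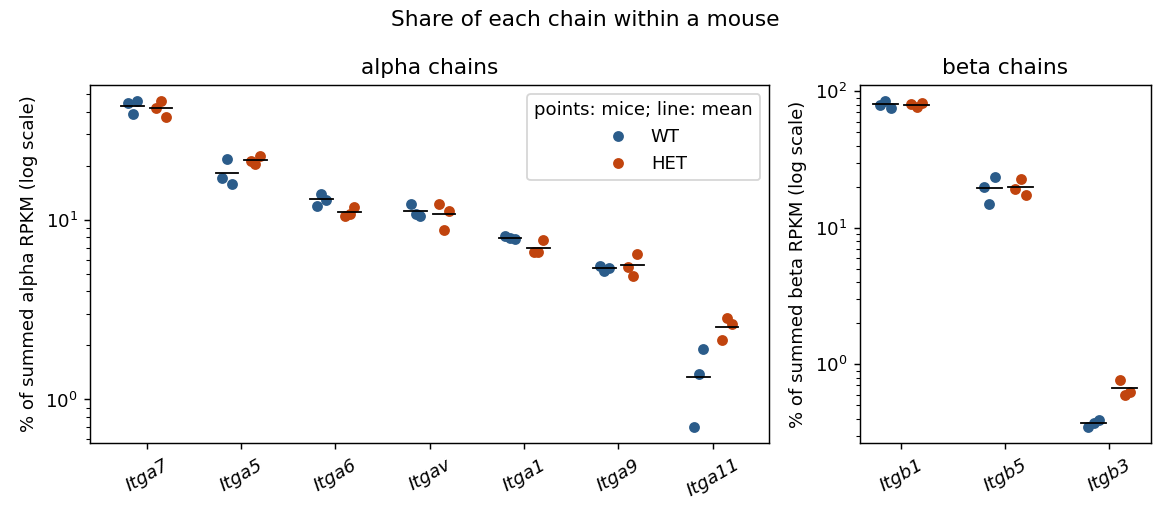
Share of each member in the summed RPKM of the alpha (left) or beta (right) members of a mouse, in percent. The axis is logarithmic, with 1 point per mouse and a line at the mean of 3. Itga7 and Itgb1 hold the most in both genotypes, and the shares of Itga11 and Itgb3 are higher in all 3 HET mice than in any WT mouse.

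Of the 9 other matrix-binding integrins in the tested set, 7 were above 0, with a median log2 fold change of 0.38, and 0 passed the threshold. Over all genes tested, 45.6% lay above 0. At an unadjusted p below 0.05 by the edgeR quasi-likelihood test, 5.76% of all genes were higher and 2.0% lower. These shares are the background for the counts in this list and in those that follow. At that p, 2 of the 9 were higher and 0 lower. These were Itga2, a collagen receptor chain with a log2 fold change of 1.22 and between 5 and 31 reads per library, and Itga4, a chain of leukocytes and other cells with 0.67. Itga2b, which platelets pair with Itgb3, had 0.54, with 23 to 61 reads per library and no overlap of the genotypes. Its unadjusted p was 0.0874 by the edgeR quasi-likelihood test. Itgb6 and Itga3 lay at the low end with −0.07 and −0.03. Of the leukocyte integrins, 6 of 7 were tested, and Itgad was too low. The median log2 fold change of the 6 was 1.13, 5 were above 0, 4 were higher at an unadjusted p below 0.05, and 0 passed the threshold, where 2 did without a filter on low counts and 1 by DESeq2. Itgb2, the common beta chain of leukocytes, was at 2.40, 2.98 and 3.28 CPM in HET mice 1 to 3 and at 0.803, 1.35 and 0.628 CPM in WT mice 1 to 3. Its log2 fold change was 1.67 with an adjusted p of 0.0785 by the edgeR quasi-likelihood test (Benjamini-Hochberg), and the genotypes did not overlap. Itgam, its partner on macrophages and neutrophils, had a log2 fold change of 1.53 from only 6 to 52 reads per library. Itgae, of lymphocytes in epithelia, had one of −0.30.

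The machinery inside the cell stayed near 0 in its median. Of 25 genes for talins, kindlins, vinculin, the ILK complex, kinases and other adaptors, 24 were tested, 14 lay above 0 and 10 below, and the median log2 fold change was 0.03. None passed the threshold, and 2 were higher at an unadjusted p below 0.05, the tyrosine kinase Src (0.62, adjusted p = 0.308 by the edgeR quasi-likelihood test (Benjamini-Hochberg)) and the focal adhesion protein zyxin, Zyx (0.30). Flna, which crosslinks actin and binds beta tails, had 0.37 in log2 fold change. At the low end stood the kindlin gene Fermt2 with −0.12 and the ILK partner Lims1 with −0.09.

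The ligands of these integrins had a higher median. Of 21 ligand genes, 19 lay above 0, beside 45.6% of all genes. At an unadjusted p below 0.05, 12 were higher and 0 lower, beside 5.76% and 2.0% of all genes. The median log2 fold change was 0.44, and 0 passed the threshold. The count past the threshold depended on the setting, with 6 ligand genes called higher without a filter on low counts and 3 by DESeq2. Spp1, the gene of osteopontin, had a log2 fold change of 1.30 (95% interval 0.25 to 2.35) from 18 to 219 reads per library. It was at 2.08, 1.79 and 4.99 CPM in HET mice 1 to 3 and between 0.602 and 1.62 CPM in WT mice. Thbs1, the gene of thrombospondin 1, was at 44.1, 34.2 and 49.1 CPM in HET mice 1 to 3 and between 11.5 and 20.5 CPM in WT mice. All 3 HET mice were above the WT mice, the log2 fold change was 1.29, and the adjusted p was 0.105 by the edgeR quasi-likelihood test (Benjamini-Hochberg). Tnc, the gene of tenascin-C and so of a ligand of Itga9, and Fn1, the gene of fibronectin, also had no overlap, with 21.9 to 35.2 CPM in HET and 8.60 to 16.0 CPM in WT mice for Tnc and 208.7 to 390.7 CPM in HET and 89.6 to 168.6 CPM in WT mice for Fn1. The 2 ligand genes below 0 were Vtn, the gene of vitronectin, with −0.18, and the laminin chain Lama5 with −0.07. Among 9 other matrix receptors 7 were above 0, the median log2 fold change was 0.15 and 0 passed, and 2 were higher at an unadjusted p below 0.05. These were the collagen receptor Ddr2 (0.44) and the syndecan Sdc2 (0.43). Ddr2 and the hyaluronan receptor Cd44 (0.44) stood at the high end and Sdc4 (−0.18) and Bcam (−0.01) at the low end.

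**Figure D4:**
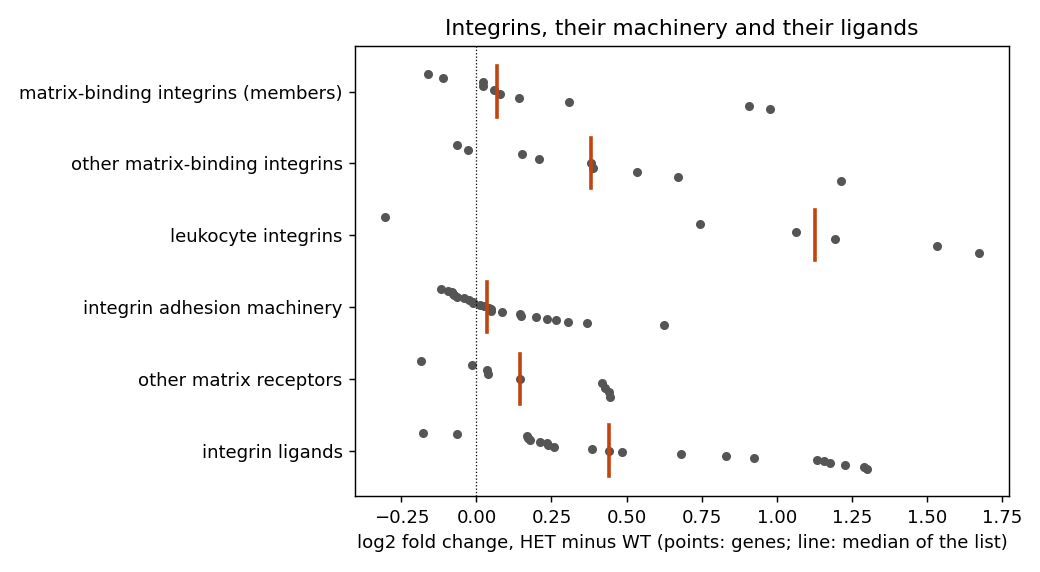
Log2 fold change of HET against WT mice for each tested gene of 6 lists, with 1 point per gene and an orange line at the median of the list. The medians are 0.07 for the members, 0.38 for other matrix-binding integrins, 1.13 for leukocyte integrins, 0.03 for the adhesion machinery, 0.15 for other matrix receptors and 0.44 for ligands.

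Summed markers of fibroblasts, tenocytes and macrophages were higher in HET mice, as Itga11 and Itgb3 were. The RNA is that of whole muscle, where a change in the number of cells of a type and a change in RNA per cell cannot be told apart. Fibroblast markers were above 0 in 10 of 10, 1 passed the threshold (Pi16), and their summed level was 2136 to 2811 CPM in HET and 1050 to 1645 CPM in WT mice. They ranged from Ly6a with a log2 fold change of 0.18 to Col1a1 with 1.23. Both Col1a1 and Col3a1 were also counted among the ligands. Their means were 625.7 and 582.7 CPM in HET and 267.1 and 327.4 CPM in WT mice. Tenocyte markers were above 0 in 8 of 8 and 0 passed, and they summed to 372.3 to 663.9 CPM in HET and 120.3 to 299.6 CPM in WT mice, with Scx at the low end (0.15) and Chad at the high end (2.14). Macrophage markers were above 0 in 11 of 12, and Adgre1, Csf1r, C1qa, C1qb and Lyz2 rose at an adjusted p below 0.05 in edgeR's quasi-likelihood test. Their sum was 93.0 to 132.4 CPM in HET and 54.1 to 63.0 CPM in WT mice, and their range ran from Mertk (−0.10) to Fcgr1 (2.14). Fcgr1 had only 2 to 56 reads per library, and the 95% interval of its log2 fold change ran from 0.77 to 3.52. The genotypes did not overlap in any of these 3 sums, with or without the most abundant marker of each. WT mouse 1 was the lowest of all 6 in each, as it was for Itga11 and Itgb3. Of the HET mice, mouse 1 was lowest in the fibroblast and tenocyte sums and in Itga11 but highest in Itgb3. HET mouse 2 was lowest in the macrophage sum and in Itgb3. No marker of these 3 lists was at 0 reads in a library. The part of these cells in the values of Itga11, Itgb3, the ligands and the leukocyte integrins was not tested.

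For the other cell types, endothelial markers were above 0 in 5 of 10 and summed to 619.8 to 764.7 CPM in HET and 628.5 to 801.8 CPM in WT mice, which overlap. They lay between Cdh5 (−0.18) and Cldn5 (0.22) in log2 fold change. Smooth muscle and pericyte markers were above 0 in 6 of 9, from Rgs5 (−0.33) to Cnn1 (0.60), and summed to 1091 to 1223 CPM in HET and 1224 to 1390 CPM in WT mice, which do not overlap. Rgs5 alone decided this, since the other 8 summed to 532.7 to 597.1 CPM in HET and 504.6 to 630.0 CPM in WT mice, which overlap. Satellite cell markers, of the muscle stem cell that also carries Itga7 and Itgb1, were above 0 in 1 of 6 and lay between Myf5 (−0.59) and Myod1 (0.16). Their sums, 40.3 to 52.2 CPM in HET and 40.0 to 54.8 CPM in WT mice, overlapped. Without Myod1, the most abundant of them, the sums did not overlap, with 24.6 to 26.1 CPM in HET and 26.9 to 33.5 CPM in WT mice. Singly, 2 of the 6 did not overlap with HET lower, beside 6.02% of all genes tested. Pax7 was at 6.87 to 7.90 CPM in HET and 8.02 to 9.26 CPM in WT mice, and Myf5 at 3.74 to 4.25 and 5.82 to 6.42 CPM. By the edgeR quasi-likelihood test (Benjamini-Hochberg), Pax7 had an unadjusted p of 0.126 and an adjusted p of 0.807. Myf5 had 0.00231 and 0.197 by the same test. The part of these cells in the values of Itga7 and Itgb1 was not tested. Muscle fiber markers were above 0 in 2 of 10, from Myh4 (−0.91) to Myh2 (0.14), and adipocyte markers in 5 of 6, from Fabp4 (−0.13) to Adipoq (1.27), with overlapping sums. Myh4 varied widely between mice, and its 95% interval ran from −4.965 to 3.154. It was at 44.71, 2042 and 167.1 CPM in HET mice 1 to 3 and 1470, 1774 and 975.9 CPM in WT mice 1 to 3. No marker of these 5 lists passed the threshold.

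**Figure D5:**
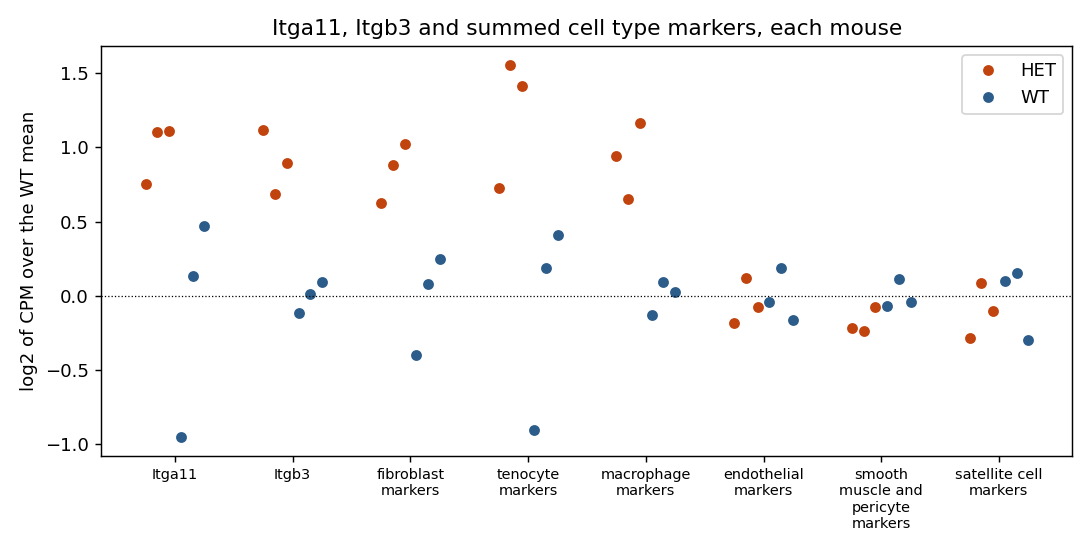
Itga11, Itgb3 and the summed CPM of 6 marker lists in each mouse, as log2 of the value over the WT mean, with HET mice 1 to 3 in orange and then WT mice 1 to 3 in blue from left to right in each column. The HET mice lie above the WT mice for Itga11, Itgb3 and the fibroblast, tenocyte and macrophage sums, overlap with them for endothelial and satellite cells, and lie below them for smooth muscle and pericytes, where Rgs5 alone decides it.

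The genes whose pattern over the 6 mice was most like that of Itgb1 were LTO1, Lrch3 and Uba2. The root mean square difference of their centred log2 CPM from that of Itgb1 lay between 0.0242 and 0.0260, beside a median of 0.153 over 7857 genes with at least 10 CPM on average. For Itga7 the nearest were Zfp830, Tmem8b and Rnf130, with differences between 0.0175 and 0.0237 beside a median of 0.134. These are descriptions over 6 mice in which both genes move little.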

How the data were processed

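The authors aligned the reads to GRCm38.p6 with STAR 2.7.3a and deposited raw counts per gene made with featureCounts 2.0.3 in reverse-stranded mode, without normalization. A second deposited table holds a normalized signal, the count over 1 DESeq2 size factor per library. The third deposited file, their DESeq2 comparison, holds log2 fold changes, standard errors and p-values and was not used.

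All values were computed from the raw counts in R 4.3.3 with edgeR 4.0.16. Genes were kept by filterByExpr with a minimum count of 10, scaled with TMM, and tested by genotype with the robust quasi-likelihood test over 6 mice, two-sided, with Benjamini-Hochberg adjustment and a threshold of 0.05. SE is the fold change over the square root of F. CPM uses TMM-scaled library sizes, and RPKM the exon lengths of the count table. Alternatives used DESeq2 1.42.0, limma 3.58.1, other scalings, filters and offsets for gene length or GC content, the replicate number as a block, and each mouse left out. Figures were drawn with matplotlib 3.10.9. Members and lists were chosen with earlier results of these data known. Named besides the members were list genes past the threshold and genes at both ends of each list (Itgb2, Itga2b, Thbs1, Tnc, Fn1 and genes at an unadjusted p below 0.05 were picked with their values in view, as were Pax7 and the sums without the most abundant marker). On simulated data with 195 changed genes tested, 148 were recovered with 3 false calls. The simulation gave all genes the same dispersion and drew the changed genes at random over all levels. It does not measure recovery at the low reads of Itga11 and Itgb3. The biological coefficient of variation was 0.143. Chi-square per gene between mice of a genotype was 15.0 to 42.8, where repeated counting gives about 1, and sampling noise adds most for Itga11 and Itgb3. Which mice shared a litter is not given in the sources used here.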

Additional observations from a re-analysis of the deposited data

How the results depend on the processing

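Of all genes, 386 were called higher and 18 lower without a filter, 200 and 10 by DESeq2, 3 and 0 by limma-voom, 6 and 0 without robust dispersion, 6 higher with GC offsets, and 0 to 77 higher and 0 to 6 lower with 1 mouse left out, with the most called without WT mouse 3. 2 members were called without a filter and 2 by DESeq2, as given above, and 0 under every other setting. Without a filter 2 leukocyte integrins, 1 machinery gene, 6 ligands and 2 other receptors were called, and by DESeq2 1 leukocyte integrin and 3 ligands. With library totals alone the mean RPKM of Itga9 in WT mice was 2.61.

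Deviations of same-numbered mice correlated at 0.203, −0.00578 and −0.0349, so not every pair deviated together, and the numbers were not used as pairs. Litters are unknown. With the replicate number as a block, 114 genes were higher and 2 lower, among them 1 leukocyte integrin and 6 ligands, and 0 members passed, with adjusted p of 0.090 for Itga11 and 0.110 for Itgb3. Block and length offset gave 140 and 2, with 1 leukocyte integrin and 7 ligands, and block and GC offset 94 and 2, with 2 ligands.

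The sign turned for members near 0. Itga7 was at −0.0397 with GC offsets and −0.0406 with block and GC offset. With 1 mouse left out it ranged from −0.0131 to 0.0709, Itga9 from −0.00521 to 0.27, Itgav from −0.0744 to 0.18 and Itgb5 from −0.0749 to 0.26, and differences of share, in percentage points, from −3.45 to 0.715 for Itga7, −0.199 to 0.596 for Itga9, −1.16 to 0.539 for Itgav, −2.69 to 1.64 for Itgb1 and −1.94 to 2.39 for Itgb5. Itga11 and Itgb3 stayed above 0 under all 18 settings. The cause of these shifts was not tested. The number of mice and the low reads of Itga11 and Itgb3 limit the precision.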
